A study of Mus musculus with 28 samples.

Results

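Abcb1a, Eng and Vcam1 are genes of the vessel wall. Their transcripts were followed in midbrain RNA of male BALB/c mice, either injected subcutaneously with CT-26.WT (a line derived from a mouse colon carcinoma) or with PBS only. The members were all probes with the gene symbol Abcb1a, Eng or Vcam1 on the arrays numbered 309 and above. This gave 3 probes, 1 for each gene (accessions NM_011076, NM_007932 and NM_011693), of 9008 probes on these arrays. All 3 passed the filter on dim and often missing probes, which left 4663 probes for the tests. Tumour mice had received 1000000 CT-26.WT cells in 300 µl PBS at 8 weeks of age, and PBS mice the same volume of PBS at the same age. Midbrain was taken 18, 72 or 192 h later. RNA of tumour and PBS mice was hybridised together on 2-colour arrays, so each array gives a ratio of tumour over PBS. The 7 total RNA pairs were hybridised in both dye orientations and the 4 polyA RNA pairs in 1 orientation. The 18 h values rest on 5 biological replicates, those of 72 h on 2 and those of 192 h on 4. Whether a replicate was 1 animal or pooled animals is not in the labels.

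Capillaries of the brain form the blood-brain barrier: endothelial cells joined by tight junctions carry transporters that admit nutrients and return many compounds to the blood. Abcb1a encodes a P-glycoprotein, an ATP-driven efflux pump of the blood-facing membrane of these cells. Eng encodes endoglin, a co-receptor for TGF-beta family ligands on endothelium. Vcam1 encodes an adhesion molecule that binds integrins of leukocytes and is known to be induced on endothelium by inflammatory cytokines. In RNA of whole midbrain, fewer endothelial cells and less RNA per endothelial cell cannot be told apart.

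None of the 3 genes passed the test at any time. At 18 h the fitted ratio of Abcb1a was -0.36 ± 0.14 on the log2 scale (SE, n = 4 replicates), a fold of 0.782 for tumour over PBS. That of Vcam1 was -0.32 ± 0.16 (SE, n = 4), a fold of 0.799, and that of Eng was -0.10 ± 0.17 (SE, n = 4). The adjusted p by limma's method was 0.930 for Abcb1a, 0.930 for Vcam1 and 0.995 for Eng. At 192 h the 3 fitted ratios lay between -0.04 and 0.15.

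Array 447 stood apart from the others. Spots with a signal in both channels made up 25.7% to 97.9% of an array (median 69.0%). The brightness of the tumour and PBS channels correlated over spots with a Spearman rho of 0.593 to 0.982 on 20 of the 21 arrays, and of -0.0144 on array 447, an array of 72 h replicate 3. Array 447 had no PBS signal for Abcb1a and Eng, so only Vcam1 has a value from it. The files do not name the dye of a channel. The first was read as Cy3 by the order of the channels in the labels, which makes the direction likely rather than certain. Under that reading the sign of the authors' deposited values ran as tumour over PBS on every array used (r 0.580 to 0.875 with the ratios computed here). With the channels the other way round, every sign given here would turn. Probes for 8 listed genes of midbrain dopamine neurons had a signal in both channels on 14 to 21 arrays. Among them Th, the rate-limiting enzyme of dopamine synthesis, had it on 19 arrays and Pitx3, a transcription factor of these neurons, on 21. Of 33 listed endothelial markers, 14 had probes, with a signal in both channels on 5 to 21 arrays. Cdh5, the endothelial cadherin, had such a signal on 16 arrays but did not pass the filter. Pecam1, Tek and Kdr had no named probe here.

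The brightness of a probe was expressed as its percentile among all named or listed probes of the array, with probes that gave no signal counted lowest. Percentiles of different probes depend on the oligonucleotide as well as on the RNA, and so were not set against each other. The Abcb1a probe had a tumour signal on 18 and a PBS signal on 18 of 21 arrays. Its median percentile was 60.4 in the tumour channels and 59.8 in the PBS channels, where it ran between 12.7 and 87.3. The Eng probe had a tumour signal on 17 arrays (median percentile 77.5) and a PBS signal on 19 (median 80.5, range 28.5 to 94.4). Vcam1 had a tumour signal on 19 arrays (median percentile 40.8) and a PBS signal on 17 (median 58.0, range 18.7 to 83.6). The order of the Vcam1 medians turned with the dye. On the 9 arrays with tumour in Cy5 they were 64.6 for tumour and 57.0 for PBS. On the 12 arrays with tumour in Cy3 they were 39.3 and 59.0, over the arrays with a signal. All 3 probes were therefore seen in most midbrain samples, with a wide spread between arrays. Counting probes without a signal as lowest raised some percentiles. Among spots with a signal only, the PBS medians were 49.1 for Abcb1a, 78.7 for Eng and 51.1 for Vcam1. On arrays with tumour in Cy3 they were 41.1 for Abcb1a and 50.4 for Vcam1, against 56.0 and 59.0 by the first ranking. The tumour channels were not ranked in this second way.

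**Figure D1:**
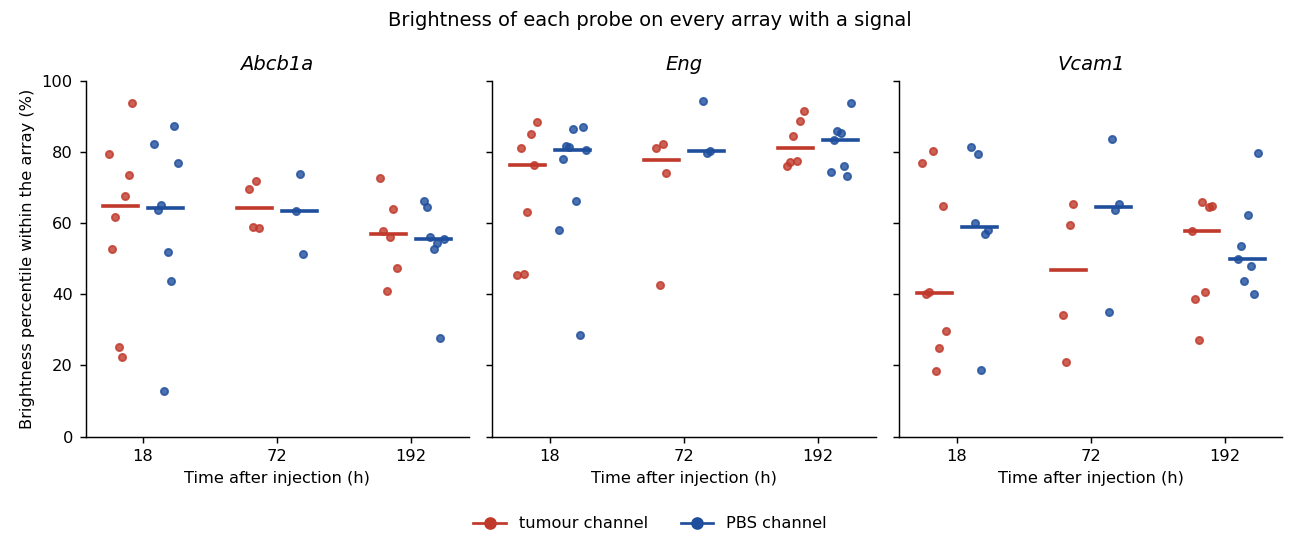
Brightness percentile of the Abcb1a, Eng and Vcam1 probes within each array (vertical axis, %) against the time after injection (h). Each point is 1 array with a signal, red for the tumour channel and blue for the PBS channel, and bars are medians. The points of both channels overlap at every time for all 3 genes.

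In the PBS channels, the percentile of each probe overlapped between the 3 times. Abcb1a had a median percentile of 64.4 over the 8 arrays with a PBS signal at 18 h, 63.6 over 3 arrays at 72 h and 55.7 over 7 arrays at 192 h. Eng stood at 80.5 over 9 arrays, 80.4 over 3 and 83.4 over 7. Vcam1 stood at 59.0 over 6 arrays, 64.6 over 4 and 49.9 over 7.

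Signals were missing more often in Cy5 than in Cy3. Over the 63 spots of the 3 probes, no Cy5 signal was found on 13 (20.6%) and no Cy3 signal on 5 (7.94%). Over all probes tested, 12.8% of spots had no Cy5 signal and 5.02% had no Cy3 signal. By sample, the tumour channel was without a signal on 9 of the 63 spots and the PBS channel on 9. All 9 arrays with PBS in Cy3 had a PBS signal for each of the 3 genes, and the spots without a PBS signal (3 for Abcb1a, 2 for Eng and 4 for Vcam1) were all on arrays with PBS in Cy5. Of the 30 ratios per gene and replicate, 12 rest on both dye orientations and 18 on 1 orientation. Of the 18, 10 are polyA RNA ratios, hybridised in 1 orientation only, and 8 are total RNA ratios with a signal missing in the other orientation. Another 3 gave no ratio (Abcb1a in 18 h replicate 3, Eng in 18 h replicate 1 and Vcam1 in 18 h replicate 2).

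Abcb1a, the efflux pump, had log2 ratios of -0.23, 0.02, -0.86 and -0.34 in replicates 1, 2, 4 and 5 at 18 h. Replicate 4 was the lowest and replicate 2 lay at about 0. The ratio of replicate 5 came from array 566 alone, with tumour in Cy5. On array 567, the exchanged array of the same RNA pair, the tumour channel stood at percentile 93.7 and PBS gave no signal. In replicate 3, which gave no ratio, array 515 had no tumour signal and array 516 no PBS signal. At 72 h the ratios were -0.02 in replicate 3 and 0.21 in replicate 4. At 192 h they were 0.25, -0.11, 0.35 and 0.09 in replicates 1 to 4. The 18 h ratios ran from -0.86 to 0.02 and the 192 h ratios from -0.11 to 0.35. Replicate 2 of each time, polyA RNA seen with tumour in Cy3 only, lay where these ranges overlapped. The share of all probes with so small an overlap was not computed.

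The fitted Abcb1a ratio at 18 h was -0.36 (95% interval -0.67 to -0.04), with an unadjusted p of 0.0311 and an adjusted p of 0.930 by limma's method over all probes. At 18 h, 4.59% of all probes tested had an unadjusted p under 0.05 in either direction, and 0% had an adjusted p under 0.05. An unadjusted p under 0.05 on the lower side was found for 2.19% of probes and on the higher side, which would apply with the channels exchanged, for 2.4%. At 72 h the fitted ratio was 0.09 (95% interval -0.37 to 0.55; adjusted p = 0.909), and at 192 h it was 0.15 (-0.17 to 0.47; adjusted p = 0.999). At 72 h 8.96% and at 192 h 1.07% of probes had an unadjusted p under 0.05, and again 0% had an adjusted one.

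The ratio of Abcb1a was higher at 192 h than at 18 h by 0.50 ± 0.21 (SE), with a 95% interval of 0.05 to 0.96. The unadjusted p was 0.0333 and the adjusted p was 1.00, so the difference did not pass the test. It was 1.01 with total RNA alone and 0.19 in the deposited matrix values. Leaving out 1 replicate gave 0.32 (without 18 h replicate 4) to 0.78 (without 18 h replicate 2). The difference of 72 h minus 18 h was 0.44 ± 0.25 (adjusted p = 0.732). With total RNA replicates alone, the 18 h ratio was -0.69 ± 0.20 (adjusted p = 0.998). It rested there on replicates 4 and 5. Without replicate 4 of 18 h, the 18 h ratio of all RNA types was -0.18 (adjusted p = 0.955).

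**Figure D2:**
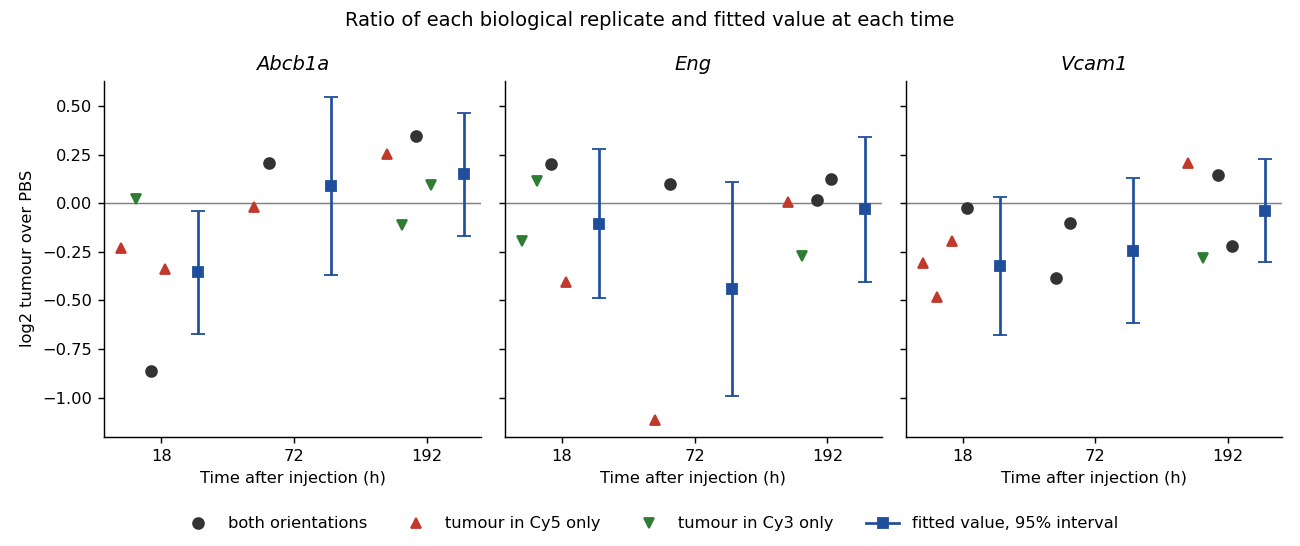
Log2 ratio of tumour over PBS (vertical axis) for Abcb1a, Eng and Vcam1 against the time after injection (h). Each point is 1 biological replicate, its shape and colour showing whether both dye orientations or 1 of them gave it, and blue squares with bars are the fitted values with their 95% intervals. The 4 Vcam1 points at 18 h and the 2 at 72 h lie below 0, and the Eng points at 72 h are 0.10 and -1.12.

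Eng, the TGF-beta co-receptor, had log2 ratios of -0.19, 0.11, 0.20 and -0.40 in replicates 2, 3, 4 and 5 at 18 h. They lay on both sides of 0. At 72 h replicate 3 gave -1.12 and replicate 4 gave 0.10. At 192 h the ratios were 0.00, -0.27, 0.02 and 0.13 in replicates 1 to 4. Apart from 72 h replicate 3, no Eng ratio lay further from 0 than 0.40.

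The value of 72 h replicate 3 came from array 445 alone, with tumour in Cy5. There the Eng probe stood at percentile 81.3 in the tumour channel and 94.4 in the PBS channel, the highest PBS percentile of Eng on the 21 arrays. On array 447, the exchanged array of the same RNA pair, the tumour channel stood at 42.6 and PBS gave no signal. The ratio of -1.12 thus has no second orientation to set beside it.

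The fitted Eng ratio was -0.10 at 18 h (95% interval -0.49 to 0.28; adjusted p = 0.995), -0.44 at 72 h (-0.99 to 0.11; adjusted p = 0.588) and -0.03 at 192 h (-0.40 to 0.34; adjusted p = 0.999). Without 72 h replicate 3, the 72 h value was 0.10 (adjusted p = 1.00). Without 72 h replicate 4 it was -1.09, with an adjusted p of 0.0412 by limma's method, and 1 array then carried the time. The lone replicate is assumed there to vary as those of the other times do. Without that replicate, 299 of all probes passed at 72 h. With total RNA replicates alone, Eng stood at 0.07 ± 0.22 at 192 h (SE; adjusted p = 1.00).

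Vcam1, the leukocyte adhesion molecule, had log2 ratios of -0.31, -0.48, -0.19 and -0.02 in replicates 1, 3, 4 and 5 at 18 h. All 4 lay below 0. Of all probes tested, 4.01% lay below 0 and 6.28% above 0 in every replicate with a value at this time. Those probes had values in 3 to 5 replicates, and Vcam1 in 4. The first 3 Vcam1 ratios rest on arrays with tumour in Cy5 only. That of replicate 4 is the mean of scans 1 and 3 of array 523, which gave -0.73 and 0.34. Replicate 5, the replicate nearest 0, had both orientations and gave 0.25 with tumour in Cy5 and -0.30 with tumour in Cy3. Arrays 361 and 369 of replicate 2 and array 516 of replicate 3 had a Vcam1 tumour signal but no PBS signal. Array 397 of replicate 2 had a PBS signal only, and array 524 of replicate 4 had neither. These arrays all had tumour in Cy3 and gave no ratio, so the signs at 18 h leave them out.

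At 72 h Vcam1 gave -0.38 in replicate 3 and -0.10 in replicate 4. Both lay below 0, where 22.7% of all probes did so in every replicate and 29.9% lay above 0 in every replicate. At 192 h the ratios were 0.21, -0.28, 0.14 and -0.22 in replicates 1 to 4, 2 above and 2 below 0. None of the 3 genes was below 0 in every replicate at 192 h, against 5.58% of all probes, and 3.88% of all probes were above 0 in every replicate.

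The fitted Vcam1 ratio was -0.32 at 18 h (95% interval -0.68 to 0.03), against a plain mean of the replicates of -0.25. Its unadjusted p was 0.0703 and its adjusted p 0.930 by limma's method. The fitted ratio was -0.24 at 72 h (-0.62 to 0.13, adjusted p 0.643) and -0.04 at 192 h (-0.30 to 0.23, adjusted p 0.999). Over the mean of the 3 times it was -0.20 ± 0.09 (SE), below 0 in 8 of 10 replicates, with an unadjusted p of 0.0416 and an adjusted p of 0.841. Of all probes, 5.68% had an unadjusted p under 0.05 for the mean. With total RNA alone the mean was -0.10 (unadjusted p = 0.378 by limma's method), and in the deposited matrix values it was -0.06. Array 447 gave -0.75 for Vcam1, the lowest of its 16 array values, and without that array the 72 h ratio was -0.11 (adjusted p = 0.993). With total RNA replicates alone the 18 h ratio was -0.02. In that fit replicates 3 and 4, seen with tumour in Cy5 only, set the dye term by themselves. The 18 h value there is therefore the ratio of replicate 5, and the total RNA mean of -0.10 includes it.

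For the differences between times, 0% of all probes had an adjusted p under 0.05, and the same held for the mean of the times. Vcam1 at 192 h minus 18 h was 0.29 ± 0.20 (SE), with an adjusted p of 0.9996 by limma's method. It was 0.08 without 192 h replicate 1 and 0.53 without 18 h replicate 5. In the latter fit every 18 h replicate left had tumour in Cy5, and 192 h replicates 1 and 2 set the dye term. Eng at 192 h minus 72 h was 0.41 ± 0.30 (adjusted p = 0.771). Over the 9 replicates with values of both genes, Pearson's r was -0.02 for Abcb1a and Eng, 0.43 for Abcb1a and Vcam1 and 0.27 for Eng and Vcam1. These ratios come from the same arrays. The signs of Abcb1a and Vcam1 matched in 7 of 9 replicates, those of Abcb1a and Eng in 7 of 9 and those of Eng and Vcam1 in 5 of 9.

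In 8 of the 12 replicate values with both orientations, the ratio had opposite signs with tumour in Cy5 and with tumour in Cy3. This concerned 1 of 3 replicates for Abcb1a, 4 of 4 for Eng and 3 of 5 for Vcam1. The share of opposite signs over all probes tested was not computed, so these counts cannot be called particular to the 3 genes.

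For Abcb1a, 18 h replicate 4 gave -0.73 with tumour in Cy5 and -0.9996 with tumour in Cy3, so it was low in both orientations. The -0.73 came from scan 2 of array 523 alone, where the tumour channel stood at percentile 22.4. Replicate 4 at 72 h gave -0.25 and 0.67, and replicate 3 at 192 h gave 0.09 and 0.61. The mean difference of Cy5 minus Cy3 was -0.39 ± 0.61 (SD, n = 3; p = 0.5 by an exact two-sided sign-flip permutation test, where 0.25 is the smallest possible).

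For Eng, tumour in Cy5 gave the higher ratio in 3 of 4 replicates. The values were 0.51 and -0.10 in 18 h replicate 4, 0.43 and -0.24 in 72 h replicate 4, and 0.27 and -0.02 in 192 h replicate 4, each with tumour in Cy5 first. In 192 h replicate 3 they were -0.10 and 0.14. The mean difference was 0.33 ± 0.42 (SD, n = 4; exact permutation p = 0.25, smallest possible 0.125).

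For Vcam1 the widest gaps were at 72 h, with -0.02 and -0.75 in replicate 3 and -0.48 and 0.28 in replicate 4. At 192 h replicate 3 gave 0.13 and 0.15, and replicate 4 gave 0.14 and -0.58. The mean difference was 0.24 ± 0.64 (SD, n = 5; exact permutation p = 0.625, smallest possible 0.0625). All 3 p-values are 0.625 after Benjamini-Hochberg adjustment.

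**Figure D3:**
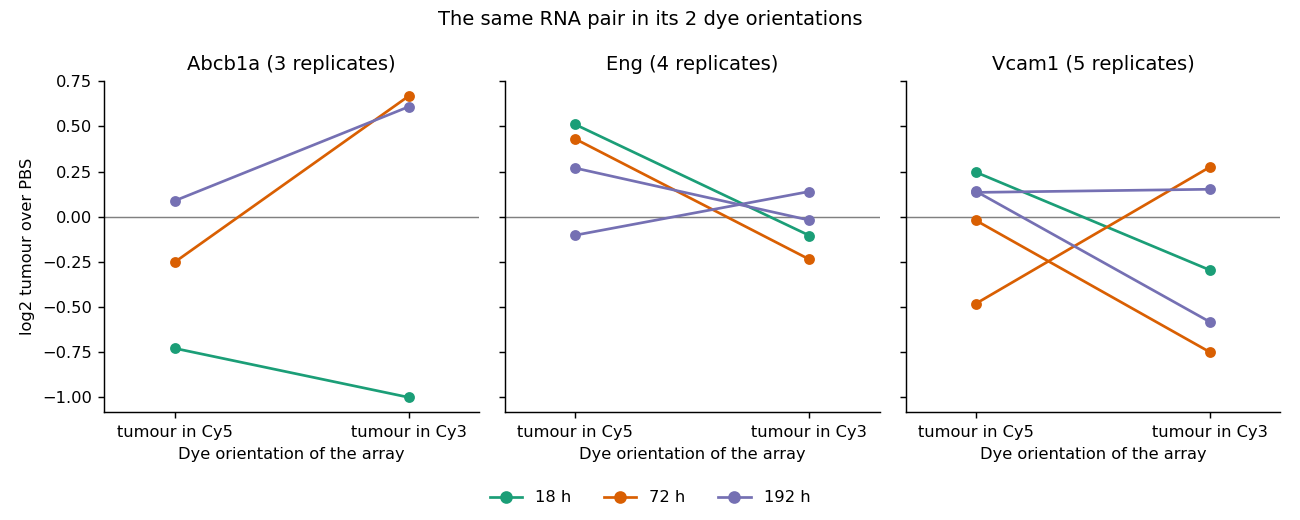
Log2 ratio of tumour over PBS (vertical axis) of the same RNA pair on arrays with tumour in Cy5 and with tumour in Cy3 (horizontal axis), for Abcb1a, Eng and Vcam1. Each line is 1 total RNA replicate with a value in both orientations, coloured by time. Most lines cross 0, among them all 4 of Eng, while the Abcb1a line of 18 h replicate 4 stays below it at -0.73 and -0.9996. The -0.73 rests on scan 2 of array 523 only.

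The role of Abcb1a was followed in a list of 26 barrier transporters, Abcb1a included, of which 15 were on the arrays and 13 passed the filter. None passed the test at any time. At 18 h, 6 of the 13 lay above 0 and the median log2 ratio was -0.15, while 49.3% of all probes lay above 0 with a median of -0.00. An unadjusted p under 0.05 was found for 4 of the 13 at 18 h, against 4.59% of all probes: Abcg2 above 0, and Abcb1a itself, Abcc6 and Tfrc below 0. The list was chosen with earlier results of these data known, and Abcb1a itself is counted. This count is therefore not independent evidence that barrier transporters differ from other probes. The medians were -0.13 at 72 h, against 0.05 over all probes, and -0.01 at 192 h, against -0.00.

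Abcg2, the other main efflux pump of brain capillaries, had a fitted ratio of 0.60 ± 0.21 at 18 h (SE, n = 4; unadjusted p = 0.0156, adjusted p = 0.930), on the other side of 0 from Abcb1a. It stood at 0.65 ± 0.31 at 72 h (adjusted p = 0.562) and at -0.21 ± 0.21 at 192 h (adjusted p = 0.999). The 72 h value includes the dye term, and the plain mean of its 2 replicates was 0.19. Tfrc, the transferrin receptor that takes up iron, was at -0.28 ± 0.10 at 18 h, below 0 in 5 of 5 replicates (unadjusted p = 0.0137, adjusted p = 0.930). Slc16a1, a monocarboxylate transporter for lactate and ketone bodies, had the smallest p at 192 h, with 0.24 ± 0.18 (adjusted p = 0.999) and a plain mean of 0.08 over 4 replicates. Abcb1b, a close paralog of Abcb1a, has a probe of its own that was too dim for the test, with a signal in both channels on 8 of 21 arrays. Whether the Abcb1a probe also binds Abcb1b transcripts was not tested.

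**Figure D4:**
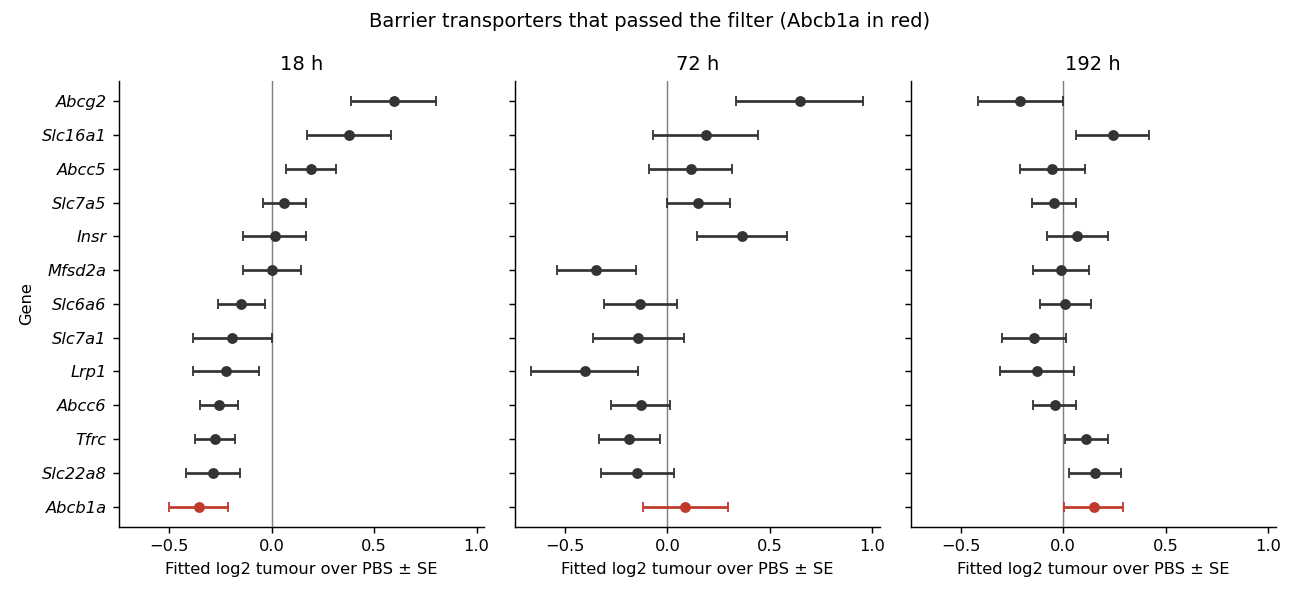
Fitted log2 ratio of tumour over PBS with its SE (horizontal axis) for the 13 barrier transporters that passed the filter (vertical axis, ordered by the 18 h value), at 18, 72 and 192 h. At 18 h Abcb1a, in red, is the lowest at -0.36 and Abcg2 the highest at 0.60, and none of the values passed the test.

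In the ATP-binding cassette family, to which Abcb1a belongs, 14 of the 28 genes on the arrays passed the filter. At 18 h 5 lay above 0, against 49.3% of all probes, with a median of -0.02. The medians were 0.02 at 72 h and -0.00 at 192 h. Beside Abcg2, Abcc6, a transporter of the multidrug resistance-associated subfamily, stood at -0.26 ± 0.09 at 18 h, below 0 in 5 of 5 replicates (unadjusted p = 0.0166, adjusted p = 0.930). Abcb8 stood at 0.38 ± 0.14 at 18 h, above 0 in 3 of 4 replicates (unadjusted p = 0.0227, adjusted p = 0.930 by limma's method). In this family, 2 genes above 0 and 2 below 0 had an unadjusted p under 0.05 at 18 h. Over all probes the shares were 2.4% and 2.19%. Abcb1a is counted here too, and the family was chosen with earlier results of these data known. These counts are therefore not independent evidence that the family differs from other probes.

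For Eng, the list of endoglin and TGF-beta/BMP signalling held 36 genes, of which 25 were on the arrays and 13 passed the filter. None passed the test, and 4 lay above 0 at 18 h, 7 at 72 h and 7 at 192 h. Tgfb2, a ligand, had a fitted ratio of -0.30 ± 0.14 at 18 h (adjusted p = 0.930). Tgfbr3, a co-receptor like endoglin, stood at -0.20 ± 0.13 (adjusted p = 0.968). Bmpr1b, a BMP receptor, was at -0.59 ± 0.18 at 72 h, with both replicates below 0 (unadjusted p = 0.00873, adjusted p = 0.513). Tgfbr2, the type II TGF-beta receptor, was at -0.16 ± 0.14 at 192 h, below 0 in 3 of 3 replicates (adjusted p = 0.999).

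For Vcam1, 10 of 24 listed genes of leukocyte adhesion were on the arrays and 4 passed the filter: Vcam1, Selplg, Itgam and Cd47. Cd47, an integrin-associated protein, was at 0.14 ± 0.10 at 18 h (adjusted p = 0.968). Selplg, the selectin ligand of leukocytes, was at -0.45 ± 0.21 at 72 h (adjusted p = 0.554) and at 0.25 ± 0.15 at 192 h (adjusted p = 0.999). Of 30 genes of inflammatory signals to endothelium, 20 were on the arrays and 9 passed the filter, with medians of -0.01, 0.04 and 0.00 at 18, 72 and 192 h. Il6ra, a subunit of the interleukin 6 receptor, was at -0.16 ± 0.12 at 18 h (adjusted p = 0.968) and at 0.35 ± 0.18 at 72 h (adjusted p = 0.567). Rela, an NF-kappaB subunit, was at 0.21 ± 0.13 at 192 h (adjusted p = 0.999), and Relb, another, at -0.14 ± 0.09 at 18 h (adjusted p = 0.966). None of these genes passed the test.

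Besides Eng, 2 endothelial markers passed the filter. Robo4, an endothelial guidance receptor, was at 0.17 ± 0.11 at 18 h, above 0 in 5 of 5 replicates (adjusted p = 0.966), at 0.32 ± 0.17 at 72 h (adjusted p = 0.575) and at -0.13 ± 0.12 at 192 h (adjusted p = 0.999). Fli1, an endothelial and blood cell transcription factor, was at -0.07 ± 0.18, 0.23 ± 0.29 and 0.17 ± 0.18 at 18, 72 and 192 h (lowest adjusted p 0.821). The plain mean of its 2 replicates at 72 h was -0.10, on the other side of 0 from the fitted value. Of 14 tight and adherens junction genes on the arrays, 3 passed the filter. Nectin2, an adhesion molecule of adherens junctions, was at -0.34 ± 0.19 at 18 h (adjusted p = 0.930) and at 0.35 ± 0.25 at 72 h (adjusted p = 0.654), with plain means of -0.15 and 0.16. Ctnnb1, beta-catenin, was at 0.17 ± 0.11 at 18 h (adjusted p = 0.944) and at -0.15 ± 0.12 at 192 h (adjusted p = 0.999). The tight junction genes Ocln and Tjp1 are on the arrays but did not pass the filter.

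Markers of other cells of the tissue were read beside the 3 genes. Their medians at 18, 72 and 192 h were 0.04, 0.04 and -0.06 for 5 pericyte and smooth muscle genes and 0.04, 0.03 and 0.06 for 3 astrocyte genes. For 2 microglia genes they were -0.01, -0.14 and 0.05. For 3 blood cell genes they were -0.06, 0.05 and 0.02, and the single choroid plexus gene, Kl, stood at 0.14, 0.06 and -0.05. For 7 dopamine neuron genes they were 0.09, 0.03 and -0.01, for 9 neuron genes -0.02, -0.05 and -0.00, and for 7 oligodendrocyte genes 0.10, -0.02 and 0.01. No marker passed the test at any time, with a lowest adjusted p of 0.513 among those named here.

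At 18 h the markers with the smallest p in each list lay on both sides of 0. Among pericyte markers, Rgs5 was at 0.16 ± 0.11 (plain mean 0.05) and Notch3 at -0.15 ± 0.12. Astrocyte markers Agt and Aldh1l1 were at 0.09 ± 0.12 and -0.09 ± 0.19, and microglia markers P2ry12 and C1qb at -0.02 ± 0.12 and 0.01 ± 0.11. Of the blood cell markers, Gzma, a granzyme of cytotoxic lymphocytes, was at 0.37 ± 0.13 and S100a8, a myeloid protein, at -0.20 ± 0.15. Nr4a2 and Ret of dopamine neurons were at 0.38 ± 0.18 and -0.18 ± 0.12. The neuron genes Map2 and Nefm were at -0.35 ± 0.13 and -0.15 ± 0.11 (plain mean of Nefm -0.06), and the oligodendrocyte genes Mag and Olig1 at 0.16 ± 0.08 and 0.27 ± 0.15.

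At 72 h, with 2 replicates, the marker values were wider. Pllp, a myelin proteolipid, was at 1.25 ± 0.53, above 0 in 1 of 2 replicates. Pitx3 was at 0.56 ± 0.17 and S100b, an astrocyte protein, at 0.33 ± 0.15. Cd79a of B cells was at -0.48 ± 0.18, Nefh at -0.45 ± 0.21, Notch3 at -0.41 ± 0.17 and C1qb at -0.17 ± 0.14.

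At 192 h, S100a8 was at 0.28 ± 0.13, Th at 0.26 ± 0.12 and Nefm at 0.22 ± 0.13 (plain mean 0.10). P2ry12 was at 0.08 ± 0.13, Notch3 at -0.07 ± 0.12, S100b at -0.10 ± 0.10 and Pllp at -0.46 ± 0.39. The part of these cells in the ratios of Abcb1a, Eng and Vcam1 was not tested.

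The probes with the most similar ratios over the biological replicates were ranked by Pearson's r, over at least 8 replicates. For Abcb1a they were Mapk6 (r = 0.965, n = 10), 0610010K14Rik (0.888, n = 9) and Aasdhppt (0.869, n = 9) among 4526 genes. For Eng they were Smim11 (0.950, n = 9), Tra2b (0.949, n = 10) and Nxf1 (0.947, n = 10) among 4561 genes. For Vcam1 they were Ctnnbip1 (0.931, n = 9), Tuft1 (0.928, n = 9) and Hspa4 (0.918, n = 10) among 4424 genes. These are the highest of the values over these genes, over at most 10 points that share arrays and dyes, and are given as a description.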

How the data were processed

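Per the file headers, the deposited scanner files hold spot intensity values of both channels with the local background subtracted; each array has several scans. Per the labels, RNA was total RNA (7 of the 11 replicates used) or polyA RNA (4). The deposited series matrix holds the authors' log ratio values (used as an alternative), whose log base stayed unknown. Work was done in R 4.3.3 and limma 3.58.1. A loess curve (span 0.3, 4 iterations) was taken off the log2 ratios of every scan, and scans, spots and then arrays of a replicate were averaged. Of 9008 probes, 4855 were named from the platform annotation's accession and 4057 from its gene number through the RefSeq gene table, and 85 kept the platform's symbol. The 7 arrays numbered below 309 were left out of the main result, because an earlier analysis of these data found their annotation unreliable. After removal of the dimmest 33.3% of probes, values in 3 replicates at 18 and 192 h and 2 at 72 h were required, which left 4663 probes for 4570 genes. A mean per time and a dye term (per probe, from the arrays with a value) were fitted by limma's method, with Benjamini-Hochberg adjustment at 0.05. It was tested on simulated data. P-values measure the spread between biological replicates, whose number limits the precision.

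The members and gene lists were chosen with earlier results of these data known. From each list the genes past the threshold were named, otherwise the 2 with the smallest p at 18 h and 1 at each later time. Fli1, Itgam, Cdh5, Ocln, Tjp1, Abcb1b, Abcb8, Th and Pitx3, and the absent Pecam1, Tek and Kdr, fall outside that rule or serve as markers. They were chosen after values were seen.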

Additional observations from a re-analysis of the deposited data

Results flagged for a closer look

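Of 13 groups of values checked, 2 held an array far from the others by Dixon's criterion, both in PBS brightness percentiles. Chance marks about 1 in 20 groups, or 0.65 of 13. Abcb1a stood at percentile 27.8 on array 509 at 192 h, while the other arrays of that time ran from 52.6 to 66.4. The tumour channel of array 509 had no Abcb1a signal, so this array gave no ratio. Eng stood at percentile 28.5 in the PBS channel of array 523 at 18 h, while the others ran from 58.1 to 87.2. Array 523 had an Eng ratio of 0.51, the highest of the 15 arrays with a value, against -0.10 on the exchanged array of the same RNA pair. The cause was not tested.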

How the results depend on the processing

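Of 480 recomputed values of the 3 genes, 439 kept their direction and stayed past no threshold, 40 turned direction and 1 passed it (Eng at 72 h, -1.09, without 72 h replicate 4). Over 23 alternatives, Abcb1a at 18 h stayed below 0 (-0.69 to -0.10), as did Vcam1 at 18 h (-0.57 to -0.0049) and at 72 h (-0.38 to -0.043). At 18 h Abcb1a was -0.18 without replicate 4 and -0.59 without replicate 2. Vcam1 was -0.57 without replicate 5 and -0.024 with each time fitted alone. In the first Vcam1 fit, every 18 h replicate left had tumour in Cy5. There 192 h replicates 1 and 2 set the dye term. In the second, replicates 1, 3 and 4 set the dye term, so the value is the ratio of replicate 5. The causes of the turns were not tested. Median centring in place of loess turned Eng at 18 h (0.044), Vcam1 at 192 h (0.094), Abcb1a over the mean of the times (0.075), Vcam1 at 72 h minus 18 h (-0.20) and Eng at 192 h minus 18 h (-0.11). Intensities without background subtraction turned Eng at 192 h (0.0060), Abcb1a at 192 h minus 72 h (-0.046) and the dye orientation of Eng (-0.044). The scan with the most spots turned Vcam1 at 72 h minus 18 h (-0.0011) and Abcb1a at 192 h minus 72 h (-0.059). Total RNA alone turned Eng at 192 h (0.072), Vcam1 at 72 h minus 18 h (-0.22) and Vcam1 at 192 h minus 18 h (-0.014). The deposited matrix turned Eng at 192 h (0.0080), Abcb1a over the mean (0.0032) and Vcam1 at 72 h minus 18 h (-0.038), 192 h minus 18 h (-0.12) and 192 h minus 72 h (-0.080). With all 28 arrays, Abcb1a at 72 h was -0.27. Fitted alone, Eng at 72 h was 0.10. There replicate 3 by itself set the dye term, so the value is the ratio of replicate 4, as it is without replicate 3.

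Same-numbered samples of different times correlated at -0.08 to 0.05 (18 and 72 h), -0.12 to 0.33 (18 and 192 h) and 0.11 to 0.15 (72 and 192 h), and differently numbered ones at -0.07 to 0.08, -0.31 to 0.18 and -0.17 to 0.17. Since not every same-numbered pair exceeded 0.1, the numbers were not taken to pair samples; the data do not settle it. With the replicate number as a block, 1 probe passed for 192 h minus 72 h, Eng at 192 h minus 18 h was -0.084 and Abcb1a at 192 h minus 72 h was -0.038.

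Leaving out each replicate in turn gave 0 to 1 called probes at 18 h, 0 to 299 at 72 h, 0 to 155 for the mean, 0 to 185 for 72 h minus 18 h, 0 to 1 for 192 h minus 18 h and 0 to 204 for 192 h minus 72 h; the 4 high counts are without 72 h replicate 4. With each time fitted alone, 1 probe passed at 18 h and 5 at 72 h. The same omissions gave Eng -0.21 to 0.0058 at 18 h, -1.09 to 0.10 at 72 h, -0.11 to 0.14 at 192 h, -1.02 to 0.17 for 72 h minus 18 h, -0.037 to 0.28 for 192 h minus 18 h and -0.13 to 1.06 for 192 h minus 72 h. They gave Vcam1 -0.14 to 0.058 at 192 h and -0.061 to 0.33 for 72 h minus 18 h, and Abcb1a -0.053 to 0.21 at 72 h, -0.13 to 0.023 for the mean and -0.053 to 0.21 for 192 h minus 72 h.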
